A study of Mus musculus with 300 samples.

Results

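The livers of vehicle-dosed mice taken on day 8 were compared with those of vehicle-dosed mice taken on day 4, by the labels of tissue, compound and day. This gave 20 arrays, 10 for each day, of 75 liver arrays and 300 arrays in all. The study gave mice an oral dose of WY14643, GW501516 or rosiglitazone, which are agonists of the PPAR-alpha, PPAR-delta and PPAR-gamma nuclear receptors, at 10 mg/kg, or vehicle, and took tissues on days 4, 8 and 15. RNA of liver, heart, kidney and skeletal muscle was measured on Affymetrix mouse arrays, with 5 mice for each compound and day and 10 vehicle mice for each day. The vehicle day 8 and vehicle day 4 groups shared the tissue and the absence of a compound and differed in the labelled day. The labels used here gave no strain, sex, age, feeding state, hour of collection or array date, and they did not name the vehicle. Day and hour of collection, and any array batch that followed the day, cannot be told apart. The number in each mouse's label differed between the days, so the 20 arrays were taken as 20 animals. In the liver comparisons each p-value rests on the spread between animals within groups. That spread was estimated over all 75 liver arrays in 12 groups, compound-treated and day 15 livers included.

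The circadian clock is a feedback loop of transcription factors that runs in nearly every cell of the body. ARNTL (also called BMAL1) pairs with CLOCK or NPAS2 and switches on genes that carry E-boxes in their promoters, among them the Per, Cry, Nr1d and Ciart genes, whose proteins in turn hold the activators or the Arntl gene back. The PAR bZIP factors DBP, TEF and HLF pass the rhythm on through D-boxes, which NFIL3 also binds as a repressor, and in liver the clock and the time of feeding set the daily course of many genes of lipid, glucose, heme and amino acid metabolism.

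Promoters of 6 clock and PAR bZIP genes are shown. They were chosen among genes called changed below that carry matches to the motifs through which these factors act. The sequences are those of RefSeq on build GRCm38.p6, from 250 bases before to 50 bases after an annotated start, and capitals mark the matches on either strand. The motifs searched were the E-box CACGTG, its variant CACGTT, the D-box TTANGTAA and the ROR element TAGGTCA, to which ROR activators and NR1D repressors bind, and no matches overlapped. Positions count from the annotated start. A further annotated start of Arntl and of Per1 has a window without a match, and a further one of Tef has an E-box.
Ciart, chr3:95882179-95882478, minus strand, E-boxes at -116, -58 and -44: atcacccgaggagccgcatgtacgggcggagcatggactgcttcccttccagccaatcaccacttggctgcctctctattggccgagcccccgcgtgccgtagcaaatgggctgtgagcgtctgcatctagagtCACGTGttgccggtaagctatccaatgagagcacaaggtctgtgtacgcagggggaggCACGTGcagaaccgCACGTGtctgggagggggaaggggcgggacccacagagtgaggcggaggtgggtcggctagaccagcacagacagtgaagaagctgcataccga
Per1, chr11:69098699-69098998, plus strand, E-box at -166: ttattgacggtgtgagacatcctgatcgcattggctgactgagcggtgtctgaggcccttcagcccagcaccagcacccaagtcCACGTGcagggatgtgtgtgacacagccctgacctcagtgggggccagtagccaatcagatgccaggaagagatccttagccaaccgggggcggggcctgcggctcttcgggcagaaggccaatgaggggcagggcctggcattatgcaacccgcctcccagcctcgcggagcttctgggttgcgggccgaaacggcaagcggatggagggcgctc
Tef, chr15:81802423-81802722, plus strand, E-box at -127: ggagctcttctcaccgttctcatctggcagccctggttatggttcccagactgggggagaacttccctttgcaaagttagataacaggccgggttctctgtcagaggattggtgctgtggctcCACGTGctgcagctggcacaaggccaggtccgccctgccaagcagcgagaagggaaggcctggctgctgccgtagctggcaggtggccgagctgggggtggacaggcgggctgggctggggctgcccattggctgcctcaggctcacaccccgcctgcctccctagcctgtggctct
Per3, chr4:151044616-151044915, minus strand, D-boxes at -205 and -158: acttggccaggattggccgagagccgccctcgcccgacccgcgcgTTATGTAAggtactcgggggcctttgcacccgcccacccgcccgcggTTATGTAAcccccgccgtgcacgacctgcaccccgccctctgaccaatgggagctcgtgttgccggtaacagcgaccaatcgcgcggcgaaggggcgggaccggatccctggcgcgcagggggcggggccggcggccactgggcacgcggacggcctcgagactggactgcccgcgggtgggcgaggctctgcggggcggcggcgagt
Arntl, chr7:113207261-113207560, plus strand, ROR element at 31: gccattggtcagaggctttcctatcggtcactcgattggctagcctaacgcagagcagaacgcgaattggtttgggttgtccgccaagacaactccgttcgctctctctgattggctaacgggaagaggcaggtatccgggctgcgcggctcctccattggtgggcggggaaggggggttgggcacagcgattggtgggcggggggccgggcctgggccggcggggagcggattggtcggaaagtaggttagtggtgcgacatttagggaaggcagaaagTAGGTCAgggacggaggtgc
Nfil3, chr13:52980990-52981289, minus strand, ROR element at -12 read from the opposite strand: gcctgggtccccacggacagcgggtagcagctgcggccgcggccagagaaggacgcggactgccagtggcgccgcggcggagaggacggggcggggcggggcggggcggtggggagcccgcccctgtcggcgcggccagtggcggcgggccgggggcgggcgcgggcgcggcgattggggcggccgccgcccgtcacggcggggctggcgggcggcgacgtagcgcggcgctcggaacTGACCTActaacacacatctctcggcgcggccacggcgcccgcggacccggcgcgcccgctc
Among 32851 promoters of this length in the table, 7.15% held the E-box, 4.68% the variant, 2.32% the D-box and 2.61% the ROR element. Of 19 clock and PAR bZIP genes with a promoter in the table, 5 held the E-box, 4 the variant, 3 the D-box and 2 the ROR element in any of their promoters. Counted in the same way, 10.2%, 6.01%, 2.10% and 2.57% of 14452 tested genes did. The E-box lay in the called genes Ciart, Per1 and Tef and in Cry1 and Bhlhe41, which were not called. The variant lay in Cry2, which was called, and in Cry1, Nr1d1 and Rorb, which were not, and the D-box lay in Per3, which was called, and in Rorb and Timeless, which were not. Among the 10 largest falls without overlap named below, Slc20a1 held E-boxes and Usp2, Nampt, Marveld1 and Ung held none of the 4 motifs. Among the 10 largest rises, Clpx held the variant and Arntl the ROR element. Npas2, Nckap5, Slc30a10, Mad2l2, Mrnip, Afap1l2 and Syt9 held none. These matches describe the letters of the windows and no binding was measured.

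Values are log2 intensities, so a difference of 1 is a change of 2-fold, and a gene was called changed at a Benjamini-Hochberg adjusted p under 0.05 in limma over 18193 genes. Array medians ran over 6.14 to 6.25 on day 8 and 6.12 to 6.23 on day 4. The 8 measured hepatocyte markers averaged 14.14 to 14.21 on the day 8 arrays and 14.18 to 14.23 on the day 4 arrays, high on each of them. Between day 8 and day 4, 1771 genes were called, 9.73% of those tested, with 900 higher (4.95%) and 871 lower (4.79%). With each array centred on its median the split was 555 higher and 1530 lower, so the balance of the directions depended on the scaling. A change of at least 1.5-fold was called for 189 genes (1.04%), and the 10 day 8 values did not overlap with the 10 day 4 values for 77 genes (0.423%). Replicates 4 and 7 of day 4 stood apart in the heat shock gene Hspa1a, with 9.10 and 9.26, against 3.95 to 5.82 on the other day 4 arrays. This gene was picked after the data were seen. Over all genes the day 4 arrays correlated with each other at 0.9891 to 0.9939, and the day 8 arrays at 0.9866 to 0.9947. Without replicates 4 and 7 of day 4, 1078 genes were called.

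Among the clock genes that were called, members of the activator list were higher on day 8 and members of the repressor list were lower. Of 21 measured clock and PAR bZIP genes 12 were called, against 9.73% of all genes, with 4 higher (4.95% of all genes) and 8 lower (4.79%) on day 8, and their median difference was -0.21 against -0.01 over all genes. Values of 8 of them did not overlap between the days (0.423% of all genes), 3 higher (0.231%) and 5 lower (0.192%). The clock lists, like the other lists below, were chosen with earlier results of these data known. Their shares beside those of all genes therefore describe the lists and are no independent test. The activator partners Arntl, Npas2 and Clock were higher on day 8, and the repressors Ciart, Per1, Per2, Per3, Cry2 and Nr1d2 were lower.

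**Figure D1:**
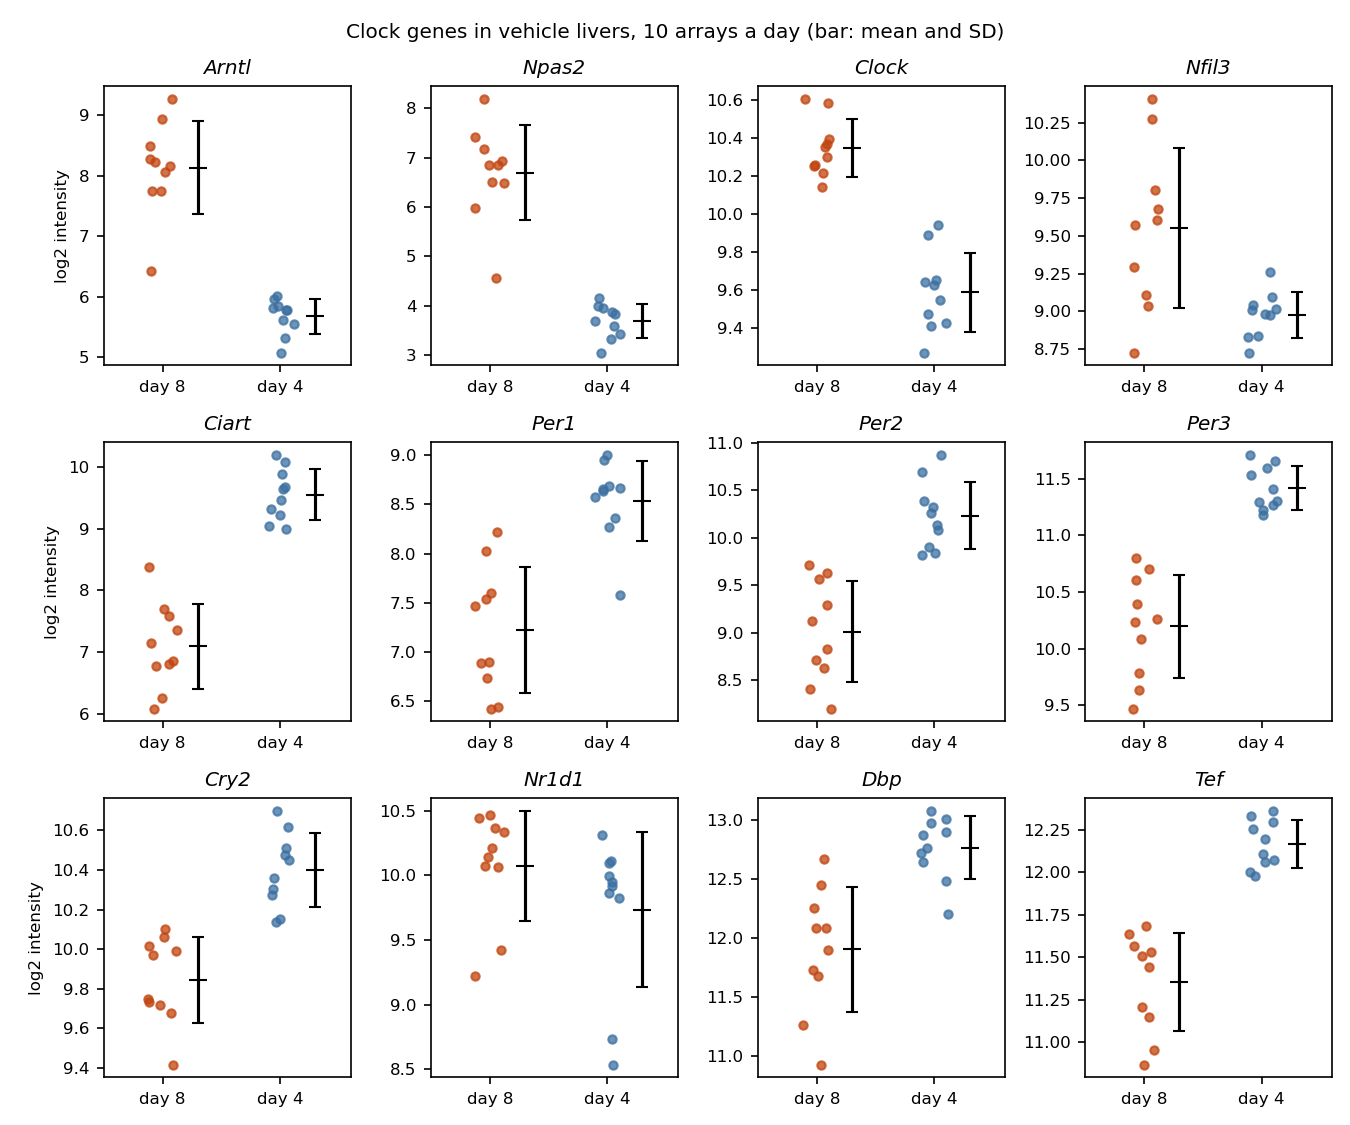
Log2 intensity of 12 clock and PAR bZIP genes (1 panel each, own axis) on the 10 vehicle day 8 arrays (left) and the 10 vehicle day 4 arrays (right), with the mean and SD of each group as a bar. Arntl lay at 6.41 to 9.27 on day 8 and 5.07 to 6.02 on day 4, while Nr1d1 overlapped between the days.

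Arntl, the indispensable activator of the loop, lay at 6.41, 8.20 and 9.27 (lowest, median, highest) on the 10 day 8 arrays, against 5.07, 5.78 and 6.02 on the 10 day 4 arrays. No day 8 value reached down to a day 4 value, and the day 8 arrays were far more spread, with an SD of 0.77 against 0.29. The difference was 2.46 ± 0.33 (SE), or 5.52-fold (adjusted p 3.11e-07 in limma). Replicate 10 of day 8 held the lowest value, and the next lowest was 7.75. A second probe set of Arntl, dim in liver with a mean of 2.52 against 6.39, differed by 0.22 and was not called. The promoter window of Arntl shown above holds the ROR element just past its start, while that of another annotated start holds none of the motifs.

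Npas2, a relative of CLOCK that can take its place, lay at 4.55, 6.85 and 8.20 on day 8, against 3.04, 3.75 and 4.16 on day 4. The groups did not overlap and the difference was 3.01 ± 0.30 (adjusted p 5.69e-11). This value came from the probe set that was brightest over all tissues. A second probe set, brighter in liver with a mean of 5.06 against 4.43, differed by -0.13 and was not called, so the probe sets of Npas2 disagreed. Clock, the partner of ARNTL with acetyltransferase activity, lay at 10.14, 10.33 and 10.61 on day 8, against 9.27, 9.59 and 9.94 on day 4. Its difference of 0.76 ± 0.12 (adjusted p 5.35e-06) came without overlap, and all 4 of its probe sets were called higher.

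The other 3 members of the activating arm were not called. Arntl2, a paralog of Arntl, differed by 0.49 (adjusted p 0.207), and by -0.11 with its probe set of the highest liver mean. The ROR receptors, which raise Arntl transcription, differed by -0.01 for Rora (adjusted p 0.959) and -0.17 for Rorb (adjusted p 0.230), the second of which was dim, with a median of 2.96 on day 8 and 3.07 on day 4.

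Ciart, a repressor that binds the ARNTL complex, had the largest difference among the repressors. It lay at 6.08, 7.002 and 8.38 on day 8, against 8.996, 9.56 and 10.21 on day 4, without overlap. The difference was -2.46 ± 0.33 (adjusted p 3.63e-07), and its promoter above carries 3 E-boxes.

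The 3 Period genes, whose proteins block the activators together with the cryptochromes, were all lower on day 8. Per2 lay at 8.20, 8.97 and 9.71 on day 8, against 9.82, 10.20 and 10.87 on day 4, a difference of -1.22 ± 0.17 (adjusted p 8.86e-07). Per3 lay at 9.47, 10.25 and 10.80 on day 8, against 11.18, 11.36 and 11.71 on day 4, a difference of -1.22 ± 0.19 (adjusted p 8.83e-06). Neither gene overlapped between the days, and each of the 3 probe sets of Per2 and of the 6 probe sets of Per3 was called lower. Per1, which glucocorticoids also induce, lay at 6.42, 7.18 and 8.22 on day 8, against 7.57, 8.64 and 9.01 on day 4. Its groups overlapped through a single low day 4 array, replicate 1, and the difference was -1.31 ± 0.20 (adjusted p 3.63e-06).

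The cryptochromes parted ways. Cry2 was lower on day 8 at 9.42, 9.86 and 10.10, against 10.14, 10.41 and 10.70 on day 4, a difference of -0.56 ± 0.10 (adjusted p 4.53e-05) without overlap. Cry1 was not called, at 8.45, 8.77 and 9.44 on day 8, against 8.54, 8.99 and 9.64 on day 4 (-0.21 ± 0.17, adjusted p 0.437).

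The NR1D receptors (REV-ERBs), which silence Arntl through ROR elements, showed little difference. Nr1d1 lay at 9.22, 10.18 and 10.46 on day 8, against 8.54, 9.93 and 10.31 on day 4, and was not called (0.34 ± 0.23, adjusted p 0.353). With the replicate number as a block, which pairs different mice, Nr1d1 was called in limma (adjusted p 0.0459). Its 2 lowest day 4 values, 8.54 and 8.74, belonged to replicates 4 and 7, and without these arrays the difference was 0.07. Nr1d2 was called with a small difference of -0.26 ± 0.07 (adjusted p 0.0172), at 11.75, 12.02 and 12.20 on day 8, against 12.07, 12.26 and 12.45 on day 4.

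Other repressors did not pass. The E-box repressors Bhlhe40 and Bhlhe41 differed by -0.13 (adjusted p 0.634) and -0.56 (adjusted p 0.102), and Bhlhe41 was called without day 8 replicate 1 (adjusted p 0.0330), its highest array. Timeless, a gene of DNA replication with a debated place in the mammalian clock, differed by 0.28 (adjusted p 0.334). Of 10 measured kinase, phosphatase and ubiquitin pathway genes that act on clock proteins, only Usp2, described below, was called (10.0%, near the 9.73% of all genes).

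Of the PAR bZIP genes Tef and Dbp were lower on day 8, and their antagonist Nfil3 was higher. Tef lay at 10.87, 11.48 and 11.69 on day 8, against 11.98, 12.15 and 12.36 on day 4, a difference of -0.81 ± 0.10 (adjusted p 6.07e-08) without overlap and with all 3 probe sets called. Dbp lay at 10.93, 11.99 and 12.67 on day 8, against 12.20, 12.82 and 13.08 on day 4, with overlap (-0.86 ± 0.28, adjusted p 0.0419). Leaving out a single array ended the call of Dbp in 12 of 20 cases, with adjusted p from 0.0254 to 0.0860, while its second probe set differed by -1.07 and was called. Hlf stayed just outside the threshold at -0.28 ± 0.10 (adjusted p 0.0556) and passed in 5 other settings, such as array centring (adjusted p 0.0275), and without any of replicates 8, 9 and 10 of day 8. Nfil3 lay at 8.73, 9.59 and 10.41 on day 8, against 8.73, 8.996 and 9.26 on day 4, so its day 8 values spread upward from the day 4 range. Its difference was 0.57 ± 0.18 (adjusted p 0.0360), a call lost in 8 of 20 cases of a single array left out and with arrays centred on their medians (adjusted p 0.0525).

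Day 8 values of the clock genes were the more variable. The SD was larger on day 8 than on day 4 for 15 of the 21 genes, with a median SD of 0.433 on day 8 and 0.252 on day 4. Over all genes 51.5% had the larger SD on day 8, and the median SD was 0.201 on day 8 and 0.197 on day 4.

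Of all called genes without overlap, the 10 with the largest rises on day 8 were Npas2, Arntl, Nckap5, Asap2, Afap1l2, Clpx, Mrnip, Slc30a10, Mad2l2 and Syt9. Nckap5 lay at 7.89, 8.78 and 9.61 on day 8, against 6.12, 6.69 and 7.15 on day 4 (2.14 ± 0.22). Asap2, a GTPase-activating protein gene of vesicle traffic, lay at 7.48, 8.00 and 9.08 on day 8, against 5.56, 6.48 and 6.96 on day 4 (1.61 ± 0.21). Clpx encodes the unfoldase of a mitochondrial protease that also activates the first enzyme of heme synthesis. It lay at 10.53, 10.90 and 11.21 on day 8, against 9.46, 9.71 and 10.23 on day 4 (1.11 ± 0.15). The manganese exporter gene Slc30a10 rose by 0.99 ± 0.20, the DNA repair genes Mrnip and Mad2l2 by 1.04 ± 0.13 and 0.90 ± 0.12, the actin adaptor gene Afap1l2 by 1.39 ± 0.21 and the synaptotagmin gene Syt9 by 0.80 ± 0.15. Adjusted p ran from 5.69e-11 to 0.000365 over these 10 genes. Clpx and Mrnip each have a second probe set, which was not called.

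The 10 largest falls without overlap were in Usp2, Ciart, Wee1, Per2, Per3, Marveld1, Slc20a1, Ung, Nampt and Tef, of which Ciart, Per2, Per3 and Tef are members of the clock lists. Usp2, a deubiquitinase that acts on clock proteins and a strongly rhythmic liver gene, lay at 8.09, 9.26 and 10.50 on day 8, against 11.43, 12.07 and 12.29 on day 4 (-2.53 ± 0.28, adjusted p 7.70e-10). Wee1, a kinase that delays entry into mitosis and is driven by the clock through E-boxes in mouse liver, lay at 7.87, 8.95 and 9.47 on day 8, against 9.74, 10.29 and 10.78 on day 4 (-1.41 ± 0.21). Nampt, the rate-limiting enzyme of NAD salvage, lay at 9.02, 9.69 and 9.99 on day 8, against 10.06, 10.48 and 10.80 on day 4 (-0.82 ± 0.11). Marveld1, a membrane protein gene, had the lowest adjusted p among the named genes, 1.33e-13, at 10.55, 10.74 and 10.90 on day 8, against 11.28, 11.59 and 11.90 on day 4. The phosphate transporter gene Slc20a1 fell by 0.88 ± 0.14, and the uracil-DNA glycosylase gene Ung fell by 0.85 ± 0.14. None of the other probe sets of Slc20a1 was called.

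**Figure D2:**
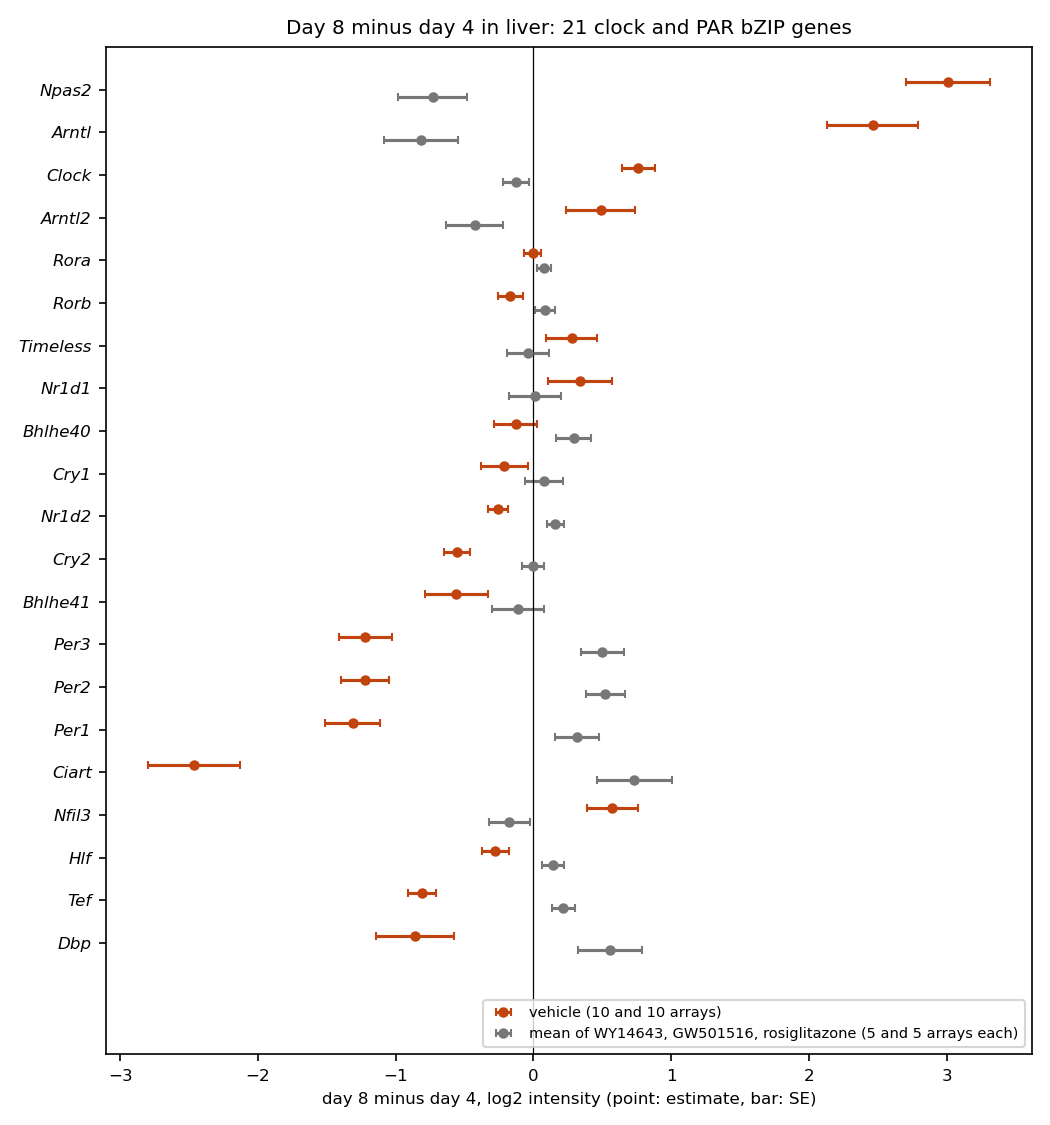
Difference of day 8 minus day 4 in log2 intensity (x axis) for 21 clock and PAR bZIP genes, for vehicle livers (upper point of each pair) and for the mean of the 3 compounds (lower point), with SE as bars. Vehicle points run from 3.01 for Npas2 to -2.46 for Ciart, and Arntl stands at 2.46 with vehicle and -0.81 with the compounds.

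Among 27 measured output genes, a list of genes with a known daily rhythm in liver, 16 were called (59.3%, against 9.73% of all genes), 5 higher (18.5%, against 4.95%) and 11 lower on day 8 (40.7%, against 4.79%). The median difference of the list was -0.25, against -0.01 over all genes. This list too was chosen with earlier results of these data known, so its share is no independent test. Beside Usp2, Wee1 and Nampt, the largest falls were in Pdxp, Noct, Nrg4 and Alas1. Pdxp, the pyridoxal phosphatase gene, lay at 4.88, 5.53 and 5.93 on day 8, against 5.82, 6.79 and 8.22 on day 4 (-1.46 ± 0.27, adjusted p 0.000138). Noct, a phosphatase of NADPH once taken for a deadenylase, lay at 8.24, 10.07 and 10.74 on day 8, against 10.06, 11.25 and 12.07 on day 4 (-1.39 ± 0.26, adjusted p 0.000167). Nrg4, a growth factor gene secreted by metabolic tissue, differed by -1.36 ± 0.27 (adjusted p 0.000420). Alas1, the first enzyme of heme synthesis, was wide on day 8, at 8.99, 10.997 and 12.45, against 10.93, 11.95 and 12.70 on day 4. Its call (-0.92 ± 0.28, adjusted p 0.0281) was lost in 5 of 20 cases of a single array left out, with adjusted p up to 0.0964. The remaining 4 falls, named to complete the list, were in Upp2 (-0.80), Tspan4 (-0.75), Coq10b (-0.73) and Mthfd1l (-0.71).

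Output genes that rose were Dtx4, Denn2b (St5), Slc45a3, Avpr1a and Leap2. Dtx4, a ubiquitin ligase gene of the Notch pathway, lay at 8.01, 8.47 and 8.68 on day 8, against 6.66, 7.55 and 8.17 on day 4 (0.88 ± 0.13, adjusted p 3.30e-06). Leap2, a liver peptide that antagonises the ghrelin receptor, lay at 13.03, 13.20 and 13.35 on day 8, against 12.43, 12.62 and 13.08 on day 4 (0.53 ± 0.09, adjusted p 4.21e-05). The vasopressin receptor gene Avpr1a rose by 0.57 ± 0.14, the Rab regulator gene Denn2b by 0.83 ± 0.14 and the transporter gene Slc45a3 by 0.78 ± 0.23, the last not called without day 4 replicate 6 (adjusted p 0.0554). Cdkn1a, the p21 cell cycle inhibitor, differed by 1.77 ± 0.71 without passing (adjusted p 0.0948), over 6.72, 7.86 and 12.35 on day 8 and 5.90, 6.80 and 8.29 on day 4.

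**Figure D3:**
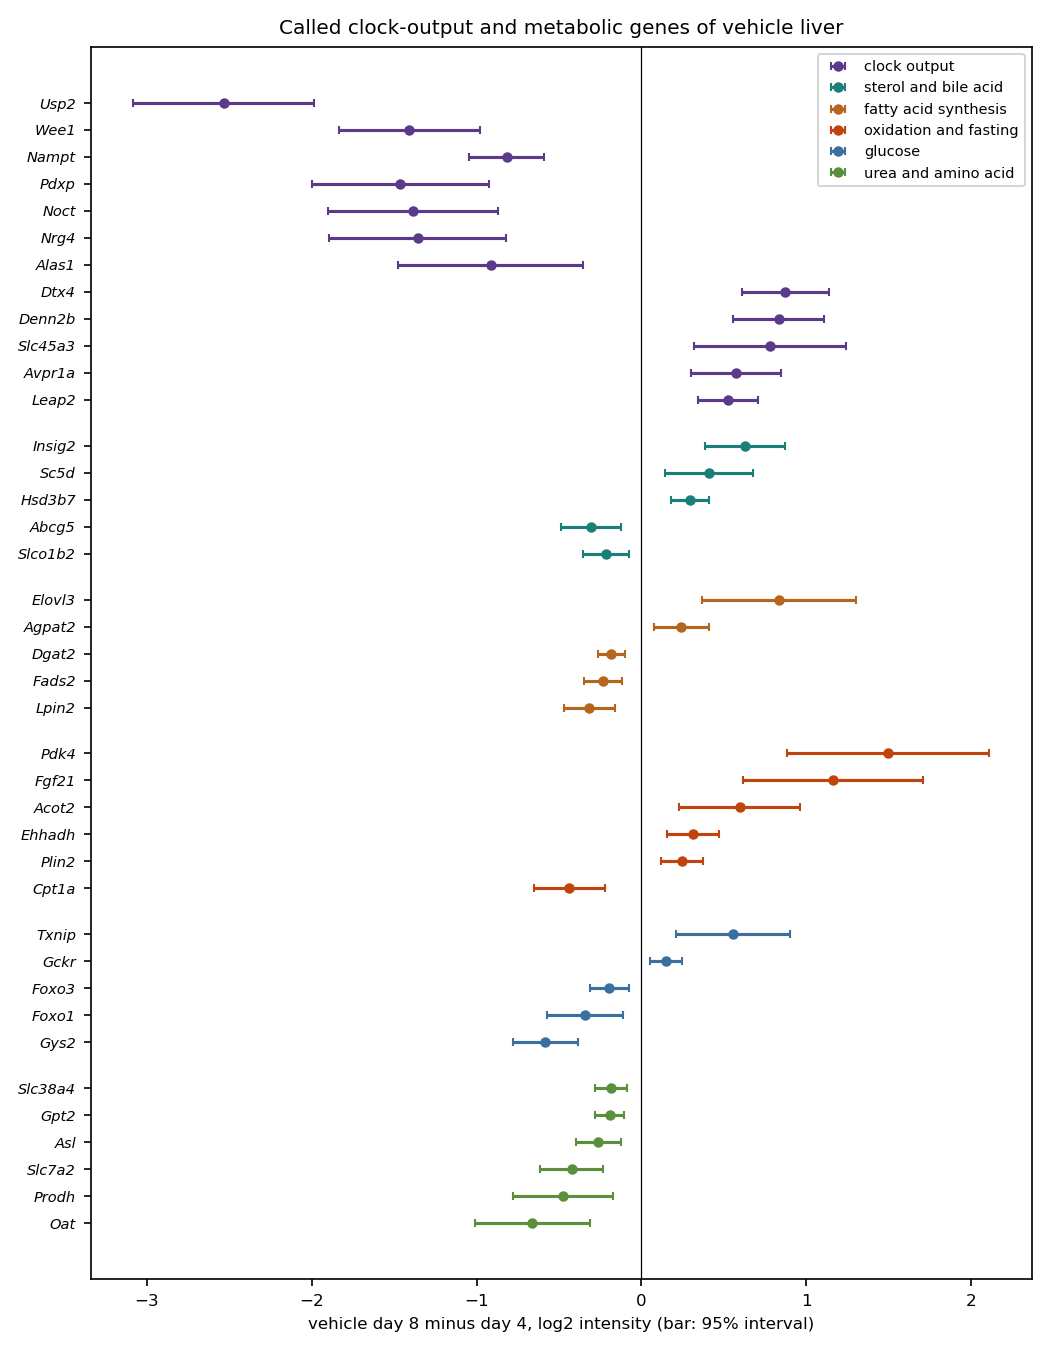
Difference of vehicle day 8 minus day 4 in log2 intensity with its 95% interval for 39 called genes of the clock output and metabolic lists, coloured by list. Clock output reaches from -2.53 for Usp2 to 0.88 for Dtx4, and each of the 6 urea and amino acid genes lies below 0.

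Over all pathway lists, clock output included, 55 of 310 measured genes were called (17.7%), 19 higher (6.13%) and 36 lower (11.6%) on day 8, with a median of -0.04. Without the clock output genes 39 of 283 were called (13.8%), 14 higher (4.95%) and 25 lower (8.83%). These shares, and those of the lists that follow, stand beside 9.73% of all genes called, 4.95% higher and 4.79% lower. Without day 4 replicates 4 and 7 the count was 38, with 11 higher and 27 lower. Of the named genes called with all arrays, 18 then missed the threshold, at adjusted p from 0.0532 to 0.186: Nfil3 of the clock lists, and Alas1, Sc5d, Slco1b2, Elovl3, Agpat2, Acot2, Plin2, Txnip, Foxo1, Foxo3, Gckr, Prodh, Mt1, Fkbp5, Hspd1, Dnajb9 and Stat5b.

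Of 22 cholesterol synthesis genes 2 rose and none fell, and the share called (9.09%) was near that of all genes. Insig2, which holds the sterol sensor SCAP in the endoplasmic reticulum, lay at 12.72, 12.90 and 12.97 on day 8, against 11.41, 12.25 and 12.61 on day 4, without overlap (0.63 ± 0.12, adjusted p 0.000295). Sc5d, a late enzyme of the pathway, differed by 0.41 ± 0.13 (adjusted p 0.0399), a call that ended when any of 8 single arrays was left out. Cyp51 (-0.06, adjusted p 0.796) and Sqle (-0.32, adjusted p 0.345) did not pass.

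Bile acid genes were called in 3 of 27 cases (11.1%), a share near that of all genes. Hsd3b7, an early enzyme of bile acid synthesis, rose by 0.30 ± 0.06 (adjusted p 0.000353). The sterol exporter subunit Abcg5 fell by 0.31 ± 0.09 (adjusted p 0.0225), and was not called without replicate 4 or replicate 7 of day 8 (adjusted p up to 0.0573). The uptake carrier Slco1b2 fell by 0.22 ± 0.07 (adjusted p 0.0399), a call that ended when any of 10 single arrays was left out. Cyp7a1, the rate-limiting enzyme of bile acid synthesis, was not called, at 11.38, 11.92 and 12.42 on day 8, against 11.28, 12.19 and 12.84 on day 4 (-0.22 ± 0.32, adjusted p 0.700).

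Fatty acid and triglyceride synthesis had 2 genes higher and 3 lower of 28 (17.9% called, against 9.73% of all genes). Elovl3, an elongase of very long chain fatty acids with a strong daily rhythm in mouse liver, lay at 11.52, 11.997 and 12.45 on day 8, against 10.04, 11.30 and 11.74 on day 4 (0.84 ± 0.23, adjusted p 0.0154). The desaturase Fads2 (-0.23 ± 0.06), the acyltransferase Dgat2 (-0.18 ± 0.04) and the phosphatidate phosphatase Lpin2 (-0.31 ± 0.08) fell, while Agpat2 rose by 0.24 ± 0.08 (adjusted p 0.0499), a call that ended when any of 14 single arrays was left out. The lipogenic genes Fasn (0.28, adjusted p 0.331) and Srebf1 (-0.25, adjusted p 0.217) did not pass, nor did the lipase gene Pnpla3 (1.38 ± 0.48, adjusted p 0.0527), which ranged from 6.03 to 11.18 on day 8 and from 5.56 to 8.39 on day 4.

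Of 39 genes of fatty acid oxidation and fasting 5 rose (12.8%, against 4.95% of all genes) and 1 fell (2.56%, against 4.79%). Pdk4, which spares glucose by shutting pyruvate dehydrogenase, lay at 9.12, 10.72 and 11.74 on day 8, against 8.61, 9.33 and 10.07 on day 4 (1.499 ± 0.31, adjusted p 0.000629). Fgf21, a fasting hormone of the liver, lay at 6.62, 7.80 and 8.96 on day 8, against 6.21, 6.58 and 7.48 on day 4 (1.16 ± 0.27, adjusted p 0.00338). The peroxisomal enzyme gene Ehhadh rose by 0.31 ± 0.08, the lipid droplet coat gene Plin2 by 0.25 ± 0.06 and the thioesterase gene Acot2 by 0.60 ± 0.18. Acot2 lost its call without day 4 replicate 7 or 10 (adjusted p up to 0.0599). Cpt1a, the gate of mitochondrial fatty acid entry, moved the other way, at 10.99, 11.43 and 11.67 on day 8, against 11.55, 11.72 and 12.19 on day 4 (-0.44 ± 0.11, adjusted p 0.00519). The coactivator Ppargc1a (-0.13, adjusted p 0.655), Angptl4 (-0.18, adjusted p 0.513) and Cyp4a14 (1.63, adjusted p 0.108) did not pass.

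Glucose and glycogen genes had 2 higher and 3 lower of 29 (17.2% called, against 9.73% of all genes). Gys2, the liver glycogen synthase, lay at 11.52, 11.87 and 12.23 on day 8, against 12.16, 12.46 and 12.71 on day 4 (-0.58 ± 0.10, adjusted p 3.12e-05), overlapping through a single array of each day. The arrestin-like gene Txnip (0.56 ± 0.17), the glucokinase regulator Gckr (0.15 ± 0.05) and the FOXO factors Foxo1 (-0.34 ± 0.12) and Foxo3 (-0.20 ± 0.06) were called at adjusted p from 0.0258 to 0.0493. These 4 calls ended when any of 4, 9, 16 and 2 single arrays was left out. The gluconeogenic genes G6pc (0.45, adjusted p 0.0564) and Pck1 (-0.20, adjusted p 0.0776) did not pass.

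Of 25 urea cycle and amino acid genes 7 fell (28%, against 4.79% of all genes) and none rose (4.95% of all genes did), and the median over the list was -0.05, against -0.01 over all genes. Oat, which turns ornithine into a glutamate precursor, lay at 9.52, 10.86 and 11.23 on day 8, against 10.80, 11.33 and 11.82 on day 4 (-0.66 ± 0.17, adjusted p 0.00962). The cationic amino acid transporter Slc7a2 lay at 11.79, 12.04 and 12.27 on day 8, against 12.25, 12.43 and 12.78 on day 4 (-0.42 ± 0.10, adjusted p 0.00232). The urea cycle enzyme Asl (-0.26 ± 0.07), the transaminase Gpt2 (-0.19 ± 0.04) and the transporter Slc38a4 (-0.18 ± 0.05) fell as well. Prodh (-0.48 ± 0.15), the first enzyme of proline breakdown, lost its call when any of 8 single arrays was left out. The seventh, named to complete the list, was Cps1 (-0.14 ± 0.04), the entry enzyme of the urea cycle.

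Xenobiotic genes were called at a share near that of all genes (8.57%, against 9.73%), with no rise and 3 falls of 35: Alas1, the receptor Rxra (-0.20 ± 0.05) and the cytochrome Cyp2e1 (-0.09 ± 0.03), which was not called without day 8 replicate 3 or 4 (adjusted p up to 0.0579). Of 17 glucocorticoid-responsive genes 3 fell (17.6%, against 4.79% of all genes): Per1, the metallothionein Mt1 (-1.36 ± 0.45, adjusted p 0.0398) and the receptor chaperone Fkbp5 (-0.65 ± 0.22, adjusted p 0.0440). Single arrays ended the calls of Mt1 and Fkbp5 in 10 and 13 of 20 cases, and Tat, a classic glucocorticoid target, did not pass (-0.16, adjusted p 0.508). Heat shock genes fell in 2 of 15 cases (13.3%, against 4.79% of all genes), Dnaja1 (-0.34 ± 0.07) and Hspd1 (-0.12 ± 0.03), both small. Of 20 genes of the unfolded protein response Dnajb9 (-0.36 ± 0.10) and Atf6 (-0.25 ± 0.07) fell and Atf4 rose (0.23 ± 0.06), which made 15.0% called, against 9.73% of all genes. Atf4 was not called with centred arrays (adjusted p 0.0677), and the brightest liver probe set of Atf6 differed by -0.11 and was not called. Of 9 genes of the growth hormone axis the signal transducer Stat5b passed (0.26 ± 0.08, adjusted p 0.0370), a share near that of all genes (11.1%, against 9.73%), and lost its call when any of 9 single arrays was left out. None of 12 immediate early genes was called in limma at an adjusted p, among them Fos (0.17, adjusted p 0.729) and Egr1 (0.47, adjusted p 0.488). Of the 12, 1 was at an unadjusted p under 0.05, Junb (-0.24), as were 4784 of all 18193 genes.

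Markers of other liver cells moved in part with these genes. Of 9 stellate cell markers 4 were higher on day 8 (44.4%, against 4.95% of all genes): Col1a1 (1.31 ± 0.38), Pdgfrb (0.54 ± 0.13), Dcn (0.26 ± 0.08) and Ecm1 (0.22 ± 0.06). Their list averaged 9.04 to 9.86 on day 8 and 8.90 to 9.39 on day 4. The endothelial marker Pecam1 was higher by 0.38 ± 0.09, 1 of 9 in its list, and among the 8 hepatocyte markers only Cyp2e1 was called. Of 9 macrophage, 6 bile duct, 6 neutrophil, 8 lymphocyte, 4 red cell, 5 adipocyte, 5 pancreatic and 8 striated muscle markers none was called, and 1 of 7 kidney markers was, Aqp2 (-0.26 ± 0.08). The single calls among endothelial (11.1%), hepatocyte (12.5%) and kidney (14.3%) markers stand beside 9.73% of all genes called. In whole liver a change in the number of a cell type and a change of RNA per cell cannot be told apart, and the part of the stellate markers in the gene results was not tested.

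Vehicle livers of day 15 were set against the same day 4 arrays, so both comparisons share their day 4 values. Between day 15 and day 4, 739 genes were called (4.06%), 8 of the 21 clock and PAR bZIP genes among them, 3 higher (2.26% of all genes) and 5 lower (1.8%). Arntl averaged 5.67 ± 0.29, 8.13 ± 0.77 and 7.36 ± 0.98 (SD, n = 10) on days 4, 8 and 15, and Ciart averaged 9.56 ± 0.42, 7.09 ± 0.69 and 8.10 ± 1.03. The difference from day 4 was 2.46 on day 8 and 1.68 on day 15 for Arntl, 3.01 and 1.596 for Npas2, -1.22 and -0.79 for Per3, and -0.81 and -0.44 for Tef. Cry2 differed by -0.56 on both days, while Per1 differed by -1.31 on day 8 and by -0.34 on day 15 (adjusted p 0.363). Day 15 arrays were wide, with Arntl between 6.11 and 8.89. A direct comparison of day 8 with day 15, added after the results were seen, called 11 genes (0.0605%), Npas2 higher on day 8 (1.42 ± 0.30) and Per1 (-0.98 ± 0.20) and Lpin1 (-1.02 ± 0.21) lower among them.

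The rise of the activators between day 4 and day 8 differed in livers of compound-treated mice. As no group's hour of collection was labelled, compound and hour cannot be told apart in this comparison or in the contrast below. Within WY14643 livers 352 genes were called between day 8 and day 4 (1.93%), and 6 clock and PAR bZIP genes moved opposite to vehicle, 4 higher (0.967% of all genes) and 2 lower (0.967%). Arntl (-1.65 ± 0.47) and Npas2 (-1.91 ± 0.43) fell, and Per2 (1.12 ± 0.24), Per3 (1.499 ± 0.27), Nr1d2 (0.37 ± 0.10) and Tef (0.64 ± 0.14) rose. These calls leaned on single arrays of WY14643: without day 4 replicate 2 the count was 83 genes and, of these 6, Per3 alone kept its call (0.99, adjusted p 0.0174), and the call of Arntl was lost in 7 of 10 cases of a WY14643 array left out, as was that of Nr1d2. Within GW501516 livers limma called 0 genes (0%), with 1308 at an unadjusted p under 0.05, and within rosiglitazone livers 0 genes (0%), with 1723 at an unadjusted p under 0.05; with array weights the counts were 2 and 1. Arntl differed there by 0.18 ± 0.47 and -0.97 ± 0.47. The second value rested on 1 array, the high day 4 replicate 2, without which it was -0.25 ± 0.42. The groups of 5 arrays make these intervals wide.

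**Figure D4:**
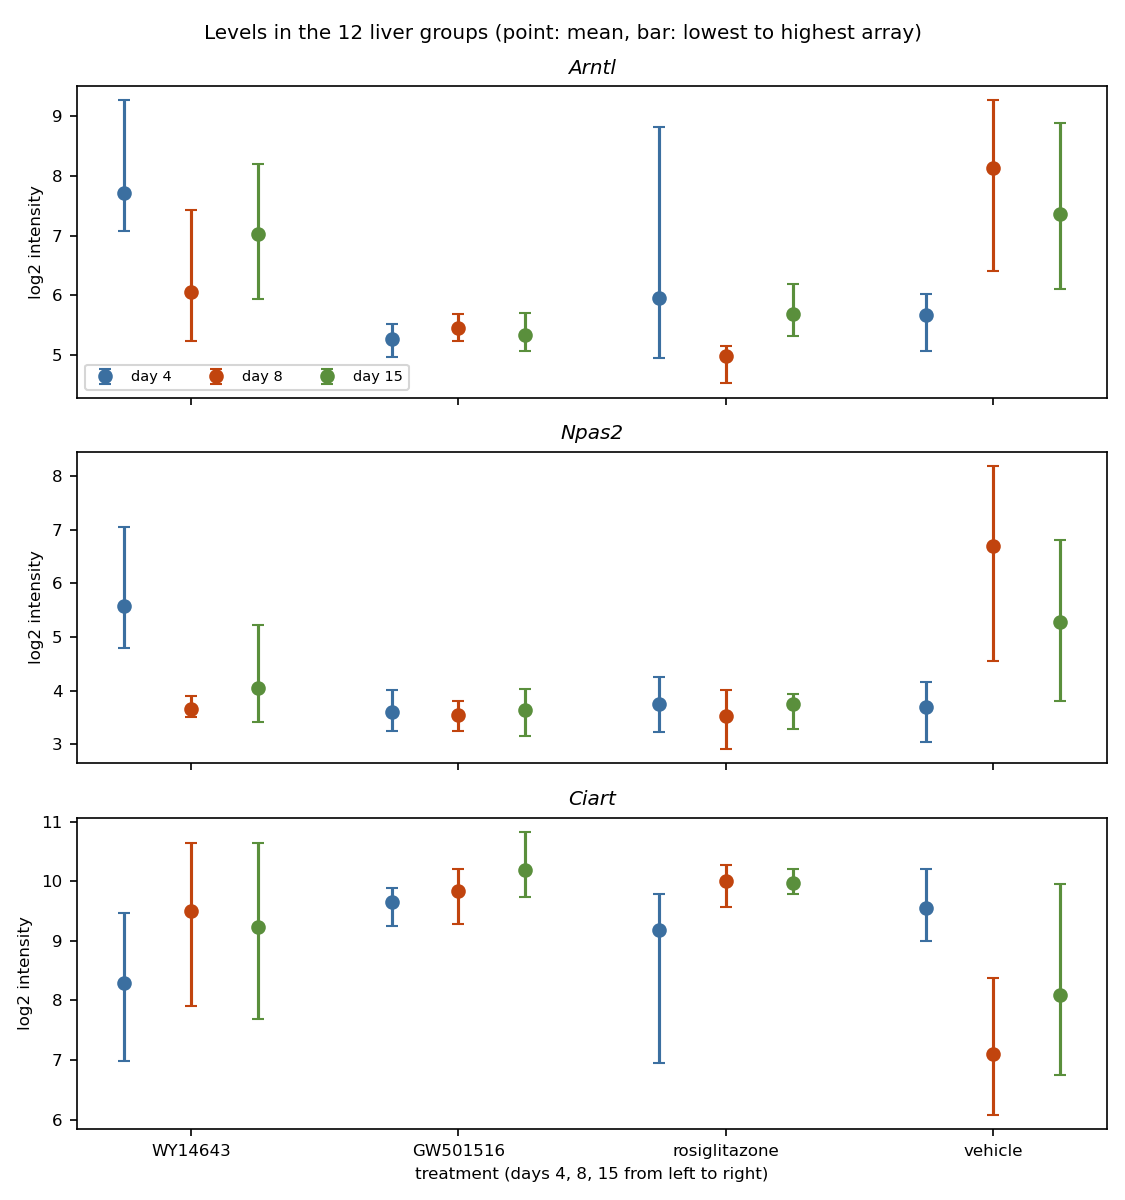
Log2 intensity of Arntl, Npas2 and Ciart (1 panel each) in the 12 liver groups, with days 4, 8 and 15 from left to right within a treatment, the mean as a point and the lowest to highest array as a bar (5 arrays a compound group, 10 a vehicle group). The vehicle day 8 mean of Arntl, 8.13, is the highest of the 12 groups and that of Ciart, 7.09, the lowest.

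The difference of vehicle day 8 minus day 4 was also set against the mean of the same difference in the 3 compounds. This contrast called 1528 genes (8.4%), and 13 of the 21 clock and PAR bZIP genes. It was 3.74 ± 0.39 for Npas2, 3.28 ± 0.43 for Arntl, 0.89 ± 0.15 for Clock and 0.75 ± 0.24 for Nfil3. It was -3.20 ± 0.43 for Ciart, between -1.75 and -1.63 for the 3 Period genes and -1.42 ± 0.37 for Dbp. Leaving out single compound arrays kept 12 of the 13 calls in 30 of 30 cases, and that of Nfil3 was lost without rosiglitazone day 4 replicate 2 (adjusted p 0.0525). This contrast was not computed with vehicle arrays left out. The highest Arntl mean of any compound group was that of WY14643 on day 4, 7.71 (7.08 to 9.27), against 6.06 (5.23 to 7.44) on day 8. GW501516 livers stayed between 4.97 and 5.70 over the 3 days, below the vehicle day 8 range on each array, while rosiglitazone livers spanned 4.96 to 8.82, 4.52 to 5.15 and 5.31 to 6.18 on days 4, 8 and 15.

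The other 3 tissues of these vehicle mice were compared between day 8 and day 4 in fits of their own. In heart 143 genes were called (0.786%), in kidney 86 (0.473%) and in skeletal muscle 34 (0.187%). With array weights these counts were 578, 416 and 51. Of the 21 clock and PAR bZIP genes, 11, 7 and 6 were called without weights in heart, kidney and skeletal muscle. Arntl was higher on day 8 by 1.80 in heart, 1.14 in kidney and 1.34 in skeletal muscle, and Npas2 by 1.32, 2.04 and 1.52. Per2 was lower by the signed differences -1.30, -0.88 and -1.61. Ciart was lower in heart (-1.57) and kidney (-0.91), and in skeletal muscle its difference of -0.76 did not pass (adjusted p 0.323).

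The difference between liver and another tissue was computed within animals. Liver moved further than heart for 4 clock genes, Npas2 (1.69), Clock (0.42), Per1 (-0.82) and Ciart (-0.90), where 2.54% of all genes were called. Against kidney 7 differed, where 1.59% of all genes were called: Arntl (1.32), Clock (0.50), Per1 (-0.87), Per3 (-0.82), Ciart (-1.55), Tef (-0.57) and Cry1 (0.99). Cry1 was lower on day 8 in kidney, by the signed difference -1.20, and not called in liver. Against skeletal muscle 5 differed, where 0.781% of all genes were called: Arntl (1.12), Npas2 (1.49), Per1 (-0.72), Ciart (-1.70) and Tef (-0.45). Nckap5 and Asap2, among the largest rises of liver, differed by at most 0.16 and 0.14 in the other tissues, and each differed from liver in all 3 (adjusted p 0.000205 or lower).

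**Figure D5:**
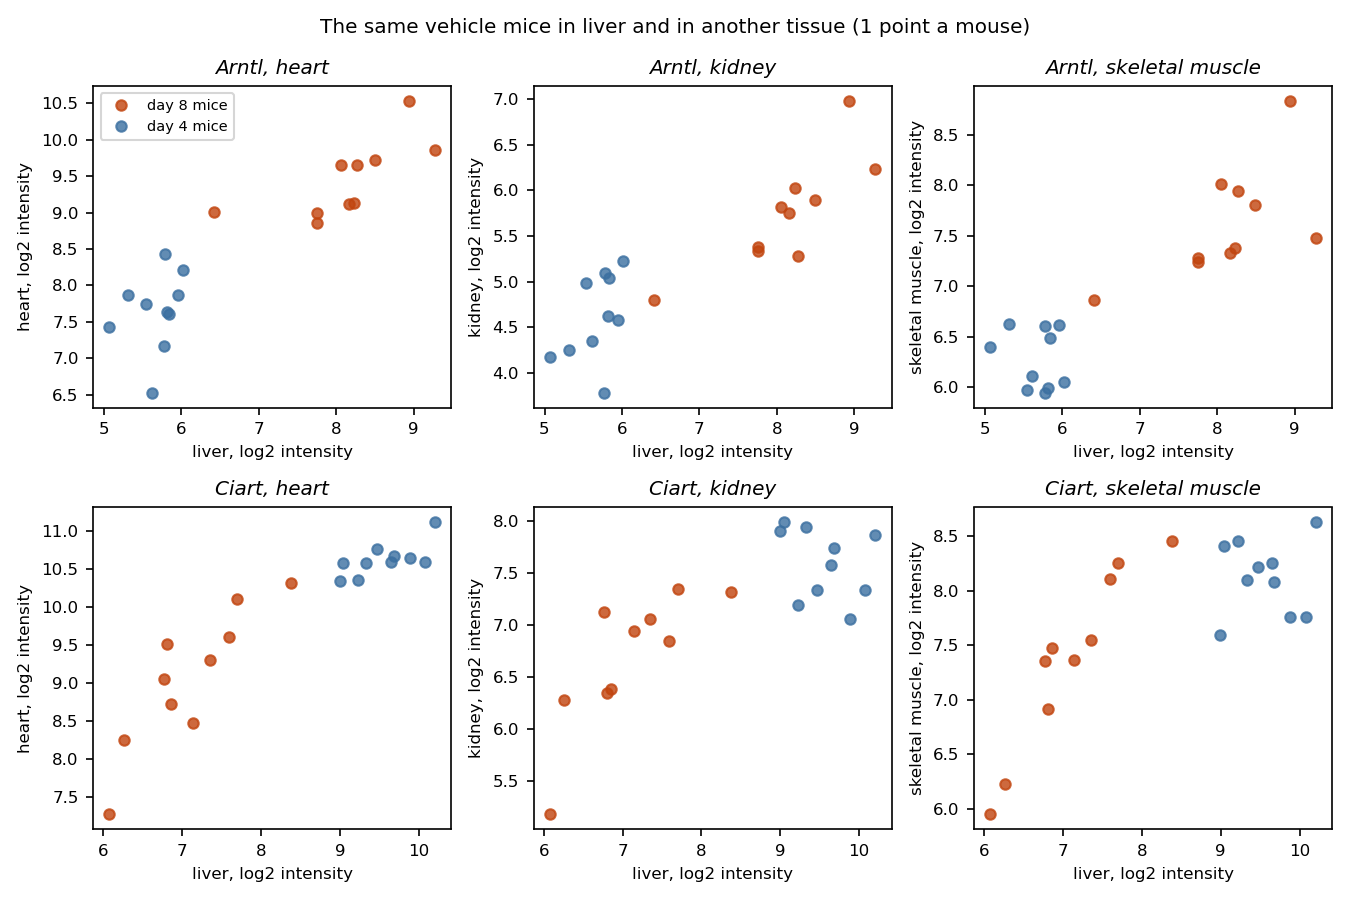
Log2 intensity of Arntl (top) and Ciart (bottom) in liver (x axis) against heart, kidney and skeletal muscle (y axis) of the same vehicle mice, 10 of day 8 and 10 of day 4, 1 point a mouse. Day 8 mice with high liver Ciart, up to 8.38, were those with high Ciart in skeletal muscle (r 0.948).

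Single mice held their place across tissues on day 8. Mouse 47, replicate 7 of the liver day 8 group, had the lowest Ciart of the group in all 4 tissues, 6.08 in liver, and the highest Arntl in heart, kidney and skeletal muscle. Mouse 50, replicate 10, had the lowest Arntl in liver, kidney and skeletal muscle and the highest Ciart in liver, heart and skeletal muscle. A correlation of liver with each other tissue was computed for Arntl and Ciart within each day, 12 relations in all, chosen after the values were seen. On day 8 liver Ciart correlated with heart (r 0.877, rho 0.855), kidney (r 0.803, rho 0.770) and skeletal muscle (r 0.948, rho 0.976), with two-sided permutation p of 0.00106, 0.00446 and 3e-05 for r and 0.00295, 0.0126 and 1e-05 for rho, the last the smallest that the permutations can give (adjusted p for r 0.00636, 0.0166 and 0.00036). Without the 2 mice farthest from the liver median r was 0.756, 0.723 and 0.939. Liver Arntl on day 8 correlated with heart (r 0.708, rho 0.915) and kidney (r 0.831, rho 0.758), with permutation p of 0.0246 and 0.00552 for r (adjusted 0.0493 and 0.0166) and 0.00047 and 0.0151 for rho. With skeletal muscle r was 0.632 (permutation p 0.0587, adjusted 0.101) and rho 0.721 (permutation p 0.0233, adjusted 0.0399). Without the 2 farthest mice r was 0.896, 0.844 and 0.832 in these 3 tissues. On day 4, where the liver range was narrow, liver Ciart correlated with heart (r 0.709, permutation p 0.0144, adjusted 0.0345; rho 0.818, permutation p 0.00640), which came to r 0.355 without the 2 farthest mice and so rests on them. The other 5 relations of day 4 had r from -0.326 to 0.480 and adjusted permutation p of 0.245 or more. Their rho ran from -0.382 to 0.636, the last for Arntl with kidney (permutation p 0.0547, adjusted 0.0821). Without the 2 farthest mice their r ran from -0.882, for Ciart with skeletal muscle, to 0.512, for Arntl with heart. With all mice the relation of Ciart with skeletal muscle had r 0.0492.

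The number in the mouse label was used as a stand-in for the order of the animals, which is not known to be the order of collection. Over 8 relations of Arntl, Nr1d1, Dbp and Per1 with the mouse number within each day, none passed after adjustment in a two-sided permutation test. Per1 on day 8 came nearest, with r 0.792 (permutation p 0.00849, adjusted 0.0679), rho 0.745 (permutation p 0.0178, adjusted 0.142) and r 0.788 without the 2 farthest mice. Arntl on day 8 had r -0.544 (permutation p 0.0974, adjusted 0.293) and rho -0.552 (permutation p 0.105, adjusted 0.210).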

How the data were processed

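Values were taken as the log2 intensities of the authors' deposited table, 45101 probe sets on 300 arrays, with no column left unused. Per the labels' protocols, RNA was purified with the Qiagen miRNeasy kit and DNase I and amplified and labelled with NuGEN kits. Per the submitters' processing notes, the values came from RMA in Partek, with versions not given in the sources used here. The log2 scale was read from the range of the values. Number of arrays and spread between animals, not read depth, limit the precision.

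Probe sets were named from GEO's platform annotation, updated through gene identifiers to RefSeq (GRCm38.p6). Of them 34945 named 1 gene, 932 several and 9160 none, and the last 2 kinds were left out with 64 control probe sets. Each of 18193 genes was represented by its probe set of highest mean intensity across all arrays. Of the 1771 genes called between day 8 and day 4, 989 had other probe sets. For 321 of these another probe set was called the same way, and for 13 the opposite way. Other probe sets were present but not called for Arntl, Npas2, Nr1d2, Clpx, Mrnip, Slc20a1, Sc5d, Slco1b2, Lpin2, Acot2, Foxo1, Rxra, Mt1, Fkbp5 and Atf4.

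Group means of the 12 liver groups were fitted over 75 arrays (63 residual degrees of freedom) with limma 3.58.1 in R 4.3.3 (lmFit, eBayes with trend), two-sided, with Benjamini-Hochberg adjustment over all genes. The other tissues were fitted alike, and differences between tissues were fitted within animals, matched by mouse number. Permutation tests used 100000 permutations in NumPy 2.4.6, with ranks from SciPy 1.17.1. The method was run on simulated data with independent genes and the same spread on all arrays of a gene. The outcome is not given here, and no result above rests on it. The simulated setting differs from the clock genes, of which 15 of 21 had the larger SD on day 8.

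Named were all measured clock and PAR bZIP genes, among called genes without overlap the 10 with the largest rise and the 10 with the largest fall, and for each pathway list up to 6 called members, called members of the opposite sign and up to 3 members not called. Other genes are named where a count, a marker list or day 15 required it, after their values were seen. The members and lists were chosen with earlier results of these data known. Alternatives were other sets of arrays, scalings, probe sets, a filter on dim genes (under the 40th percentile), eBayes without trend, array weights, a replicate block and each vehicle or compound array of days 8 and 4 left out.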

Additional observations from a re-analysis of the deposited data

Results flagged for a closer look

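Over 81 named genes, 13 of 162 groups of 10 arrays held an array whose gap to its nearest neighbour, as a share of the group's range, exceeded Dixon's 95% critical value. Chance gives about 5% of groups. On day 8 these were the lowest Arntl (6.41) and highest Ung (10.65) in replicate 10, the highest Bhlhe41 (5.98) in replicate 1, the lowest Ehhadh (11.22) and Plin2 (12.63) and highest Gpt2 (13.53) in replicate 7, and the lowest Rxra (12.26) and Prodh (9.18) in replicate 4. On day 4 they were the lowest Per1 (7.57) in replicate 1, the lowest Insig2 (11.41) and Elovl3 (10.04) in replicate 4, the lowest Sc5d (11.50) in replicate 7 and the lowest Lpin2 (12.73) in replicate 9.

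The difference of vehicle day 8 minus day 4 departed from the mean of the 3 compounds' difference for 13 clock and PAR bZIP genes, by the interaction in limma. It was 3.74 for Npas2, 3.28 for Arntl, 0.89 for Clock, 0.75 for Nfil3, -0.42 for Nr1d2 and Hlf, -0.55 for Cry2, -1.03 for Tef, -1.42 for Dbp, -1.63 for Per1, -1.72 for Per3, -1.75 for Per2 and -3.20 for Ciart.

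The vehicle difference in liver departed from that of another tissue of the same mice, tested within animals in limma. Liver minus heart was 1.69 for Npas2, 0.42 for Clock, -0.82 for Per1 and -0.90 for Ciart. Liver minus kidney was 1.32 for Arntl, 0.99 for Cry1, 0.50 for Clock, -0.57 for Tef, -0.82 for Per3, -0.87 for Per1 and -1.55 for Ciart. Liver minus skeletal muscle was 1.49 for Npas2, 1.12 for Arntl, -0.45 for Tef, -0.72 for Per1 and -1.70 for Ciart.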

How the results depend on the processing

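Leaving out single arrays gave 1213 (without day 8 replicate 3) to 2091 (without day 8 replicate 10) called genes, 154 to 238 at 1.5-fold or more, 10 to 13 clock and PAR bZIP genes and 45 to 60 pathway list members. Over the other alternatives these counts were 933 to 2085, 138 to 195, 11 to 13 and 38 to 62. A fit of only the 20 vehicle arrays of days 8 and 4 called 1284 genes. With the replicate number as a block 933 genes were called, 536 higher and 397 lower. The block pairs different mice: same-number deviations correlated by -0.083 to 0.227, and 1 of 10 day 8 arrays correlated best with its own number. Leaving out day 4 replicates 4 and 7, an alternative chosen after seeing the data, gave 1078 genes (524 higher, 554 lower). Array weights called 2 genes within GW501516 and 1 within rosiglitazone livers, 578 in heart and 416 in kidney, and kidney had 134 without dim genes. Leaving out single compound arrays, also chosen after seeing the data, gave 83 (without WY14643 day 4 replicate 2) to 714 (without day 4 replicate 3) genes within WY14643 livers, 0 each time within GW501516 and rosiglitazone livers, and 1253 to 1906 for the contrast with the compounds. Within WY14643 livers the count was 545 without day 4 replicate 1, and 139, 189 and 223 without day 8 replicates 2, 3 and 4. Array centring moved the split of higher to lower calls to 555 and 1530 in liver, to 3 and 9 among clock genes, to 252 and 347 for day 15 minus day 4, to 474 and 1718 for the contrast with the compounds and to 63 and 71 in heart. The direction turned with the brightest liver probe set for Npas2 (-0.126) and Arntl2 (-0.1113). Rora, which was not called, had differences of 0.005023 without day 4 replicates 4 and 7 and from -0.02876 to 0.0258 without single arrays, above 0 in 6 of 20 cases (0.01634, 0.002654, 0.0258, 0.01567, 0.007918 and 0.01884). The cause was not tested. Of 72 called named genes 45 kept their call and direction in every alternative run. Of called genes 493 were dim in liver, under the 40th percentile.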
